A study of Mus musculus with 2 samples.

Results

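The cytosolic ribosomal protein genes encode the proteins that, with ribosomal RNA, make up the large subunit (symbols Rpl, Rplp) and the small subunit (Rps, Rpsa) of the ribosome. They were taken as all genes whose symbol in the array annotation begins with Rpl or Rps and a digit, or is Rplp0, Rplp1, Rplp2 or Rpsa, and the S6 kinases (Rps6k) were left out. A probe set is the group of short oligonucleotides on the array that reports 1 value for a transcript. Of the 45037 probe sets, 217 carried such a symbol. Of these, 107 were listed for 1 ribosomal protein gene alone, called its own probe sets here, and 110 were listed for such a gene together with pseudogenes, predicted loci or other genes, called shared. By own probe sets there were 51 member genes of 18193 genes, and 48 of them, 25 of the large and 23 of the small subunit, were measured, among 14597 measured genes in all. A gene was measured if its brightest own probe set was over the detection floor of 47.04 on at least 1 array, and that probe set gives its value. The 3 members not measured were Rpl3l, Rps16 and Rps27.

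The study set skeletal myoblasts labelled Foxj3 WT against skeletal myoblasts labelled Foxj3 KO, in which the forkhead transcription factor gene Foxj3 is knocked out. Both were mouse cultures at passage 3, kept in DMEM with 20% fetal bovine serum and antibiotics and harvested at 80% confluency. Each genotype was represented by 1 culture and 1 Affymetrix Mouse430_2 array of total RNA. Which part of Foxj3 the knockout removed, the animals' strain and age, and whether each culture came from 1 animal or several are not given in the sources used here. With 1 array a group no difference could be tested, so every ratio below describes these 2 arrays, and the number of arrays limits its precision. All ratios are KO over WT on the log2 scale after values under the floor were set to it, and a gene was counted as higher or lower at 2-fold or more. Signals of different probe sets are not amounts of transcript and were not ranked as such, and a lower signal per culture cannot tell fewer transcripts per cell from another mix of cells.

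Ribosomal proteins are made in near-equal numbers, since each ribosome holds 1 copy of most of them, and their mRNAs are among the most abundant in growing cells. Most of these mRNAs begin with a 5′ terminal oligopyrimidine tract, a cytosine followed by a run of pyrimidines, through which their translation follows mTOR signalling and the binding of LARP1. Proliferating myoblasts make many ribosomes, and supply of ribosomal proteins, ribosomal RNA and assembly factors is normally matched.

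The start sites of the members that the results turn on show such runs in some genes and not in others. The windows below run from 10 bases before the annotated start through the first 16 transcribed bases, on the transcript strand, from RefSeq on GRCm38.p6. Capitals mark a C followed by at least 4 pyrimidines that begins within 5 bases of the annotated start. Pyrimidines directly before the capitals, as in Rpl14 and Rpl35, are not marked, so a longer run can begin further upstream. Rps6, Rpl27a and Rpl14 are shown because their probe sets differed from each other by over 2-fold, Rpl35 and Rplp2 because they were bright and lower in KO, Rps10 and Rps18 because their brightest probe sets were level, and the paralogs Rpl22l1 and Rpl7l1 because their ratios had opposite signs.
Rps6 (chr4:86857352-86857377, minus strand): gaagtcgggCCTCTTTTTCgtgacgc
Rpl27a (chr7:109519185-109519210, plus strand): cgtgagCTCCTCCCTTTTCCCTTTCT
Rpl14 (chr9:120571507-120571532, plus strand): ggccctCTCTCTTCTCgctgagcgcc
Rpl35 (chr2:39005116-39005141, minus strand): ccgccCTTTCCTCTTTCTCTCgaacc
Rplp2 (chr7:141447641-141447666, plus strand): cagcgtCTTCCTTTCgccgccggacg
Rps10 (chr17:27635229-27635254, minus strand): gcgcacgCCCCTTCCTTTCCagcctc
Rps18 (chr17:33955650-33955675, minus strand): cacttccgCTCTCTCTTCCacaggag
Rpl22l1 (chr3:28805498-28805523, plus strand): gcgcaagcccgttCTCTTCCCacggc
Rpl7l1 (chr17:46782641-46782666, minus strand): gctgcgcaagcgcagtagctgaagca

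Such a run was found in 29 of 67 windows of the standard ribosomal proteins (43.3%), in 3 of 10 windows of their paralogs (30.0%) and in 6027 of 32851 windows of all genes (18.3%). A gene can have several windows, and a run of these letters describes the sequence only. Among the members with a mean signal of at least 1000 and a window, the 15 with a run had a median ratio of 0.01 and the 18 without one had -0.02. Members with and without the run were thus close to level on these arrays.

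The array-wide values were alike on the 2 arrays. The median signal was 62.03 in WT and 63.94 in KO, with 59.2% and 60.8% of probe sets over the floor. Of 3 Foxj3 probe sets, 1 was lower in KO (496 against 77.3, ratio -2.68), 1 was not (79.7 against 99.4, ratio 0.32) and 1 was under the floor on both arrays. All 8 myoblast markers were measured, with summed signals of 8397 in WT and 8361 in KO, and 5 of the 8 were below 0. Myod1 read 631 in WT and 1751 in KO, and Des 2024 and 1091 (ratio -0.89), but 0.82 by its other probe set. The largest part of both sums was Chrna1 (3029 and 3104). Of markers of other cells, 3 of 6 for fibroblasts were measured (sums 520 and 513), 3 of 6 for macrophages (607 and 549), 2 of 5 for endothelial cells (138.5 and 164) and 1 of 4 for erythroid cells (152 and 160). None of the 4 adipocyte markers was measured. The part of other cells in the results below was not tested.

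The ribosomal protein genes as a group had nearly the same signal in WT and Foxj3 KO myoblasts. The median ratio of the 48 measured members was -0.05, with the middle of the list between -0.30 and 0.14, and the median of all 14597 measured genes was -0.06. Of the members, 22 were above 0 and 26 below, and 26 of 48 differed by less than 1.2-fold. Of all measured genes, 46.3% were above 0, and 5222 of 14597 differed by less than 1.2-fold. At 2-fold, 1 member was higher in KO, Rpl27a, and 1 was lower, Rps6, beside 3.73% of all measured genes higher and 6.72% lower. The sign of the members' median was not stable, since it was 0.02 after quantile scaling and -0.15 after loess centring.

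The large and the small subunit had medians close to each other by the brightest own probe sets. The 25 large-subunit genes had a median ratio of -0.10, with 11 above 0 and 14 below. The 23 small-subunit genes had a median of -0.02, with 11 above 0 and 12 below. The difference of the medians, large minus small, was -0.08. It turned to 0.06 with the mean of each gene's own probe sets, counting those under the floor on both arrays as 0. It turned to 0.31, with a small-subunit median of -0.36, over the 25 members with a probe set that has no letter in its ending. Most of the small-subunit probe sets of that kind had a mean signal under 1000. No order of the subunits can thus be read from the difference.

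**Figure D1:**
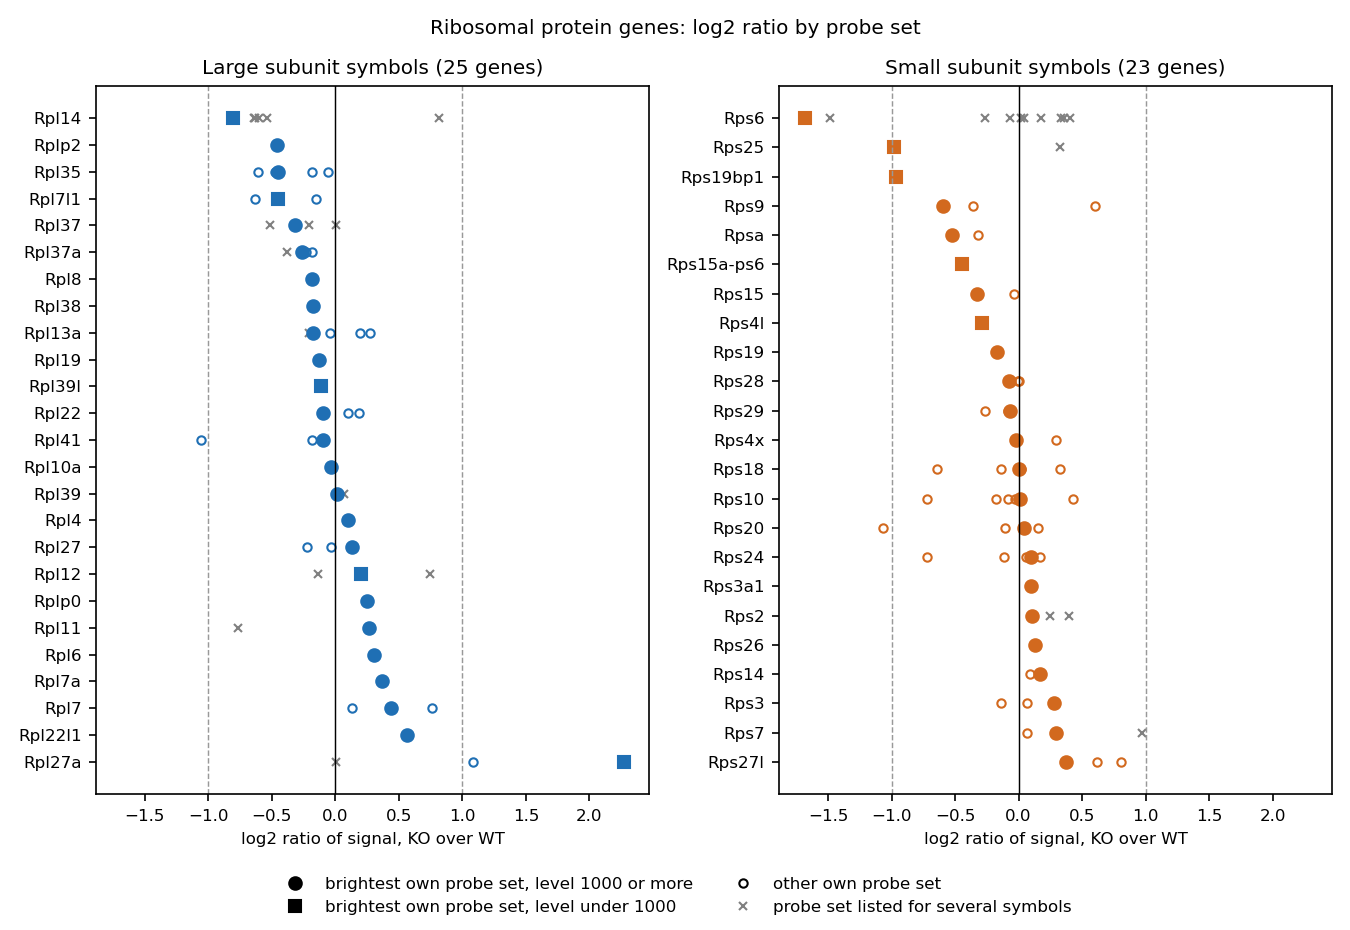
Log2 ratio of KO over WT signal (horizontal axis) for each measured member (vertical axis), large subunit on the left and small subunit on the right, ordered by the brightest own probe set. Filled circles are brightest own probe sets with a mean signal of at least 1000, squares those under 1000, open circles other own probe sets, crosses shared probe sets, and dashed lines mark 2-fold; the filled circles lie between -0.59 and 0.56, and Rpl27a at 2.27 and Rps6 at -1.69 are squares.

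Most members lay at the top of the signal range, and there the ratios were close to 0. Of 1048 probe sets with a mean signal of at least 1000, 160 (15.3%) belonged to members, and of 88 with at least 8000, 68 (77.3%) did. The 38 members whose brightest own probe set reached 1000 had a median ratio of 0.01 and a range from -0.59 to 0.56. None of the 38 was 2-fold higher or lower, beside 7.17% of the 544 genes at that signal that were higher and 2.02% that were lower. By subunit, the 20 large-subunit genes had a median of -0.06 and the 18 small-subunit genes 0.03. The 506 other genes at that signal had a median of 0.10. Neither direction was stable: after quantile scaling the 38 members had a median of 0.07 and all genes at that signal -0.11, and after loess centring -0.11 and -0.05. The 10 members under 1000 had a median of -0.45, 8 of them were below 0, and both 2-fold differences lay among them. Most 2-fold differences of all genes lay under 1000 too. Of 14597 measured genes, 544 were higher and 981 lower, and only 39 and 11 of these lay at 1000 or more.

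Counting every measured probe set, own and shared, gave the same description. The 205 probe sets of members had a median ratio of -0.04, 128 differed by less than 1.2-fold, 2 were higher at 2-fold and 6 were lower. Over all 30505 measured probe sets, 5.44% were higher and 6.29% lower. At a mean signal of at least 1000, none of 160 member probe sets was 2-fold higher and 1 was lower, a shared Rps6 probe set, beside 8.78% and 1.43% of all 1048 probe sets at that signal. Of these 160, the 94 of the large subunit had a median of -0.06 and the 66 of the small subunit 0.02.

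Few other genes were as bright as the members, so the comparison was also made at matched signal. From 6000 to 8000 the 47 member probe sets had a median of -0.05 and the 18 others -0.05. From 8000 to 10000 the 42 member probe sets had -0.03 and the 13 others -0.04. From 1000 to 4000 the 16 member probe sets had a median of 0.39 and the 805 others 0.15. From 6000 to 10000 the medians of members and other genes were thus nearly the same. Over the 7 other probe sets at 10000 or more, ratios ran from -0.28 to 0.22, against quartiles of -0.18 and 0.58 from 1000 to 4000. The ratios of other probe sets were wider just below, from -0.34 to 3.38 at 8000 to 10000 and from -0.55 to 1.32 at 6000 to 8000. Whether the scale is compressed at high signal was not tested. Of the 888 other probe sets at 1000 or more, 805 lay under 4000, against 16 of the 160 of members.

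**Figure D2:**
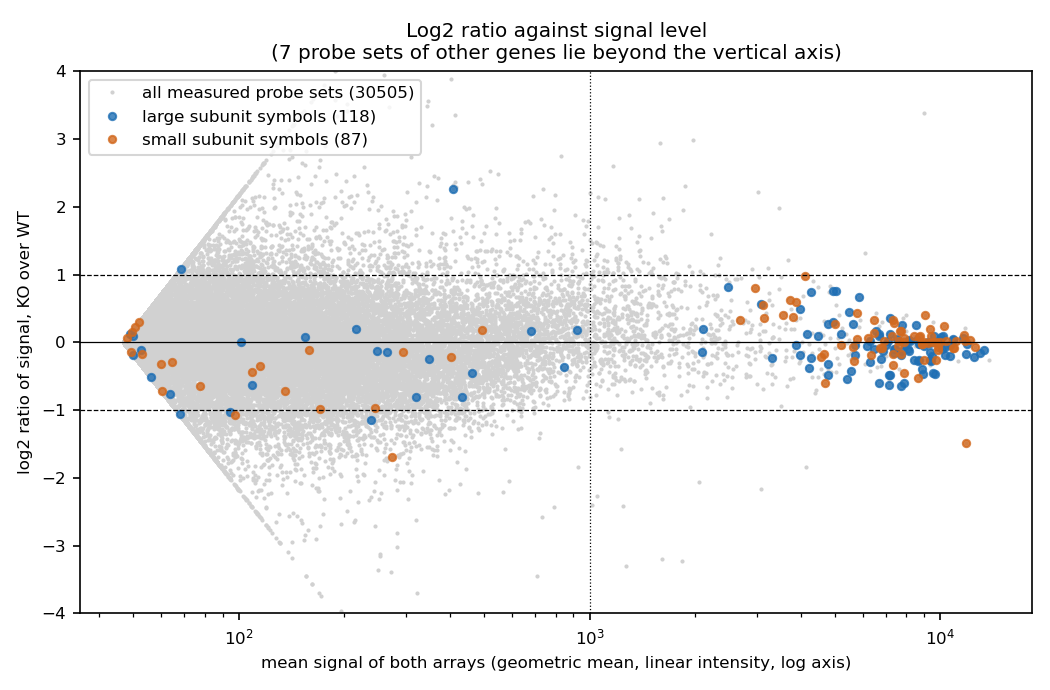
Log2 ratio of KO over WT (vertical axis) against the mean signal of both arrays (horizontal log axis, geometric mean of linear intensity) for the 30505 measured probe sets in grey, 118 of large-subunit symbols in blue and 87 of small-subunit symbols in orange. Dashed lines mark 2-fold and the dotted line a mean signal of 1000; most coloured points lie at the right near 0, and 1 small-subunit point near -1.48 is a shared Rps6 probe set.

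Rps6, the small-subunit protein that S6 kinases phosphorylate, was the member with the lowest ratio, but its probe sets disagreed. Its brightest own probe set read 492 in WT and 153 in KO, which is 3.22-fold lower and a ratio of -1.69, and its other own probe set was under the floor on both arrays. The other 9 probe sets were shared with the pseudogene Rps6-ps4. The brightest of these read 19747 in WT and 7065 in KO, a ratio of -1.48. Another shared probe set read 10276 and 10428, a ratio of 0.02. A shared probe set of lower signal read 3089 and 4094, a ratio of 0.41. Among the 8 probe sets with a mean signal of at least 1000 the ratios ran from -1.48 to 0.41, a span of 1.89, so that 2 of the 10 measured probe sets were past 2-fold and the rest were not.

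Rpl27a, a large-subunit protein, was the member with the highest ratio, and its bright probe set was level. Its brightest own probe set read 186 in WT and 897 in KO, which is 4.82-fold higher and a ratio of 2.27. The other own probe set read 37.5 in WT, under the floor, and 99.5 in KO, at least 2.12-fold higher. The probe set shared with 4 predicted loci read 9761 and 9808, a ratio of 0.01. The own probe sets thus pointed one way at low signal, and the signal that includes the predicted loci did not differ.

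Other dim probe sets were also lower in KO by about 2-fold where bright ones listed for the same gene were not. Rps25, of the small subunit, read 239 in WT and 121 in KO by its own probe set, a ratio of -0.98, and 6528 and 8196 by the shared one, a ratio of 0.33. Rpl41, the smallest ribosomal protein, had 1 own probe set at 97.9 in WT and under the floor in KO (37.1), at least 2.08-fold lower, while its brightest read 10453 and 9777, a ratio of -0.10. Rps20, of the small subunit, had 1 own probe set at 142 and 67.4, a ratio of -1.07, while its brightest read 11983 and 12333, a ratio of 0.04. A dim probe set listed for Rpl3 and predicted loci read 135 and 66.3 (ratio -1.03), and the bright one 10225 and 8549 (ratio -0.26). A dim probe set listed for Rpl17 and its pseudogenes read 354 and 160 (ratio -1.14), and the 3 bright ones had ratios from -0.29 to 0.05. With the 2 of Rps6, these 4 make up the 6 member probe sets at least 2-fold lower. No member had 1 probe set 2-fold higher and another 2-fold lower.

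**Figure D3:**
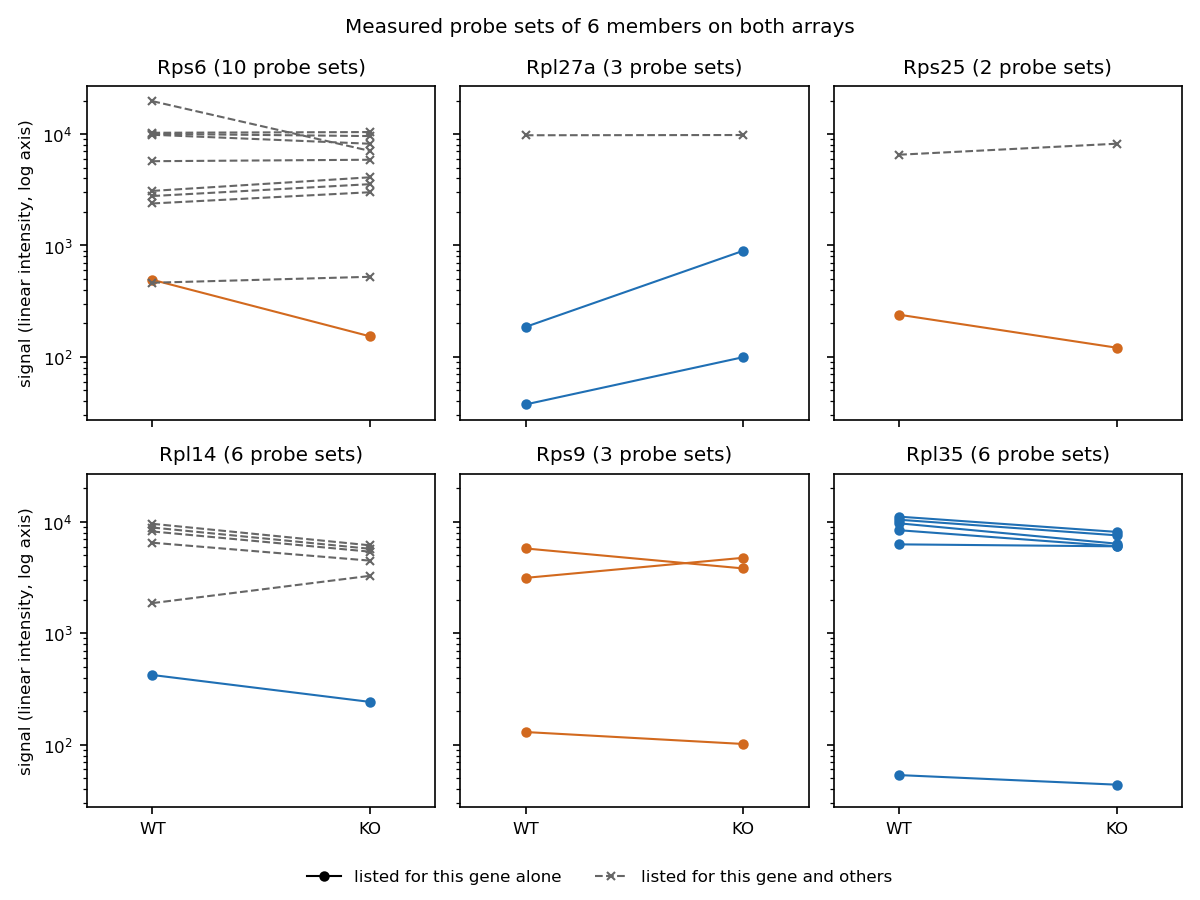
Signal (vertical log axis, linear intensity) on the WT and KO arrays for the measured probe sets of Rps6, Rpl27a, Rps25, Rpl14, Rps9 and Rpl35, 1 panel a gene. Each line is 1 probe set, solid with circles where it is listed for the gene alone and dashed with crosses where it is shared. The lines of Rps6, Rps25, Rpl14 and Rps9 run in both directions.

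Among bright probe sets of 1 gene, opposite directions were common, in members as in all genes. Own probe sets at 1000 or more agreed in sign in 11 of 18 members with at least 2 (61.1%). Over all genes they did so in 96 of 179 (53.6%). Of 40 ribosomal protein genes with at least 2 probe sets at 1000 or more, own or shared, 19 had ratios of both signs. Some of the 40 were reached only by shared probe sets. The median span from the lowest to the highest ratio was 0.30. In 11 of the 40 the span was at least 1.5-fold and in 3, Rps6, Rpl14 and Rps9, at least 2-fold. Rps9, of the small subunit, read 5778 in WT and 3825 in KO by its brightest own probe set, a ratio of -0.59, and 3148 and 4766 by another, a ratio of 0.60. Rpl14, of the large subunit, read 423 and 242 by its own probe set, a ratio of -0.80. The 4 brightest probe sets shared with Rpl14-ps1 were lower in KO, with ratios from -0.64 to -0.53, and the fifth was higher, at 1868 and 3282, a ratio of 0.81. Rpl35, of the large subunit, was lower by all 5 bright own probe sets, with ratios from -0.61 to -0.06. The brightest read 11153 and 8141 (ratio -0.45) and the dimmest of them 6291 and 6040 (ratio -0.06).

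Own probe sets of a gene that were over the floor on both arrays agreed in sign in 11 of 21 members that had at least 2 (52.4%), and in 2021 of 4752 genes in all (42.5%). Their spread within a gene was an SD of 0.29 over 67 member probe sets and 0.66 over all genes. At a mean signal of at least 1000 the within-gene SD was 0.22 for members and 0.45 for all genes. Of the 48 members, 28 had a ratio no larger in size than this within-gene SD of 0.29, which leaves out any difference between cultures or animals.

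The ratio differed with the kind of probe set. In the naming of this array, the ending _x_at marks probe sets with probes that can match other transcripts, and _a_at those that match several transcripts of 1 gene. At 1000 or more, the 78 member probe sets ending in _x_at had a median of -0.09, with 55 below 0, and the 58 ending in _a_at had 0.04, with 37 above 0. The 251 and 263 probe sets of other genes with these endings had medians of -0.07 and 0.12. In 25 ribosomal protein genes with both kinds, by own or shared probe sets and counting _x_at against all other endings, _x_at was the lower in 19. Rpl35, Rpl14 and Rps9 were among these 19. Their mean ratios at 1000 or more were -0.50, -0.60 and -0.59 by _x_at and -0.06, 0.81 and 0.60 by other endings. The order of _x_at below _a_at in members was kept after quantile (-0.03 and 0.10), median (-0.13 and -0.01) and loess scaling (-0.21 and -0.07). The _x_at probe sets were also the brighter ones in 17 of the 25, and the part of signal and of cross-matching in this order was not tested.

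The ribosomal stalk, which recruits translation factors to the large subunit, had ratios of both signs. Rplp0, its base, read 7839 in WT and 9314 in KO, a ratio of 0.25. Rplp2 read 11340 and 8227, a ratio of -0.46. The probe set listed for Rplp1 and a predicted locus read 10646 and 11047, a ratio of 0.05. Rplp0 and Rplp2, each with 1 probe set, kept these signs under the 3 other scalings (Rplp0 from 0.13 to 0.32, Rplp2 from -0.58 to -0.41).

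The brightest members of each subunit were level. Of the large subunit, Rpl13a read 12545 in WT and 11084 in KO (ratio -0.18), Rpl38 10956 and 9675 (-0.18), Rpl4 9796 and 10496 (0.10), and Rpl41 is given above, as is Rplp2. Of the small subunit, Rps29 read 12892 and 12271 (ratio -0.07), Rps20 is given above, Rps2 read 11224 and 12075 (0.11), Rps28 11257 and 10658 (-0.08) and Rps18 9944 and 9952 (0.00). Apart from Rplp2 these 10 genes differed by less than 1.2-fold.

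Rpl5 and Rpl11 bind MDM2 outside the ribosome when ribosome assembly is disturbed. Rpl11 read 4348 in WT and 5226 in KO by its own probe set, a ratio of 0.27, and 83.2 and 48.8 by a dim one shared with a predicted locus, a ratio of -0.77. The bright probe set listed for Rpl5 and a pseudogene read 10745 and 11019, a ratio of 0.04, and the dim ones had ratios of -0.12 and 0.08. Rpsa, the small-subunit protein that also serves as a laminin receptor, read 10354 and 7189 by its brightest probe set, a ratio of -0.53, and 67.1 and 53.7 by the other, a ratio of -0.32.

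The paralogs, second genes for some ribosomal proteins, differed from their parents in sign in some pairs. Rpl22l1 read 2534 in WT and 3743 in KO, a ratio of 0.56, the highest among members at 1000 or more. Its parent Rpl22, which can bind the Rpl22l1 mRNA, read 7704 and 7183, a ratio of -0.10, with 0.10 and 0.18 by the other own probe sets. Rps27l, a p53 target in other cells, read 3347 and 4334, a ratio of 0.37, with 0.62 and 0.80 by its other probe sets. The bright probe set listed for its parent Rps27 and the copy Rps27rt read 9190 and 6744, a ratio of -0.45. Rpl22l1 was higher in KO by its 1 probe set and Rps27l by all 3. Both stayed above 0 under the 3 other scalings (Rpl22l1 from 0.42 to 0.52, Rps27l from 0.24 to 0.33). These probe sets had mean signals from 1000 to 4000. All 16 member probe sets at that signal had a median of 0.39, with 12 above 0, and the 805 others 0.15.

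The other paralogs were dim. Rpl7l1 read 541 in WT and 395 in KO, a ratio of -0.45, and its other probe sets -0.64 and -0.15, while Rpl7 read 4720 and 6407, a ratio of 0.44, with 0.76 and 0.13 by the others. Rpl39l read 54.6 and 50.5, just over the floor, and Rpl39 7070 and 7137, a ratio of 0.01. Rps4l read 71.2 and 58.3, a ratio of -0.29, and Rps4x 8923 and 8818, a ratio of -0.02. Rpl3l, which takes the place of Rpl3 in mature muscle, was under the floor on both arrays (24.4 and 8.64). The brightest probe set listed for both Rpl36al and Rpl36a read 5794 and 5640, a ratio of -0.04, another, listed for Dnaaf2 too, read 2198 and 1991, a ratio of -0.14, and Rpl10l was not analysed here. Of the 5 measured paralogs 2 were above 0 and 3 below, none past 2-fold.

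A pair of members by symbol are not ribosomal proteins by function. Rps19bp1, which binds Rps19, read 343 in WT and 176 in KO, a ratio of -0.96, just inside 2-fold, and was past it after median scaling. Rps15a-ps6, a pseudogene, read 127 and 93.8, a ratio of -0.44.

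Of the standard ribosomal proteins, 22 of 46 of the large and 21 of 31 of the small subunit had an own probe set. A further 22 and 5 were reached only by shared probe sets, and the rest were not analysed here. Fau, which encodes a small-subunit protein under another symbol, read 5829 in WT and 5135 in KO, a ratio of -0.18. Taking the brightest of own and shared probe sets reached 76 genes and also replaced the probe set of some members. None was then 2-fold higher, since Rpl27a read 0.01 by its shared probe set, and 1, Rps6, was lower at -1.48.

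Genes that make or use ribosomes were read from further lists. Of all measured genes, 46.3% were above 0, with a median of -0.06. Of those at a mean signal of at least 1000, 58.1% were above 0, with a median of 0.09. Of 35 measured translation factors, 25 were above 0, the median ratio was 0.29, and 4 were at least 2-fold higher and 0 lower, beside the 3.73% and 6.72% of all genes. The 25 of them with a mean signal of at least 1000 had a median of 0.22, and 2 were 2-fold higher and 0 lower, beside 7.17% and 2.02% of all genes at that signal. Pabpc1, the cytoplasmic poly(A)-binding protein, read 1400 in WT and 6521 in KO, a ratio of 2.22, and -1.02 by its other probe set. Eif4e, which binds the mRNA cap, read 358 and 1136, a ratio of 1.67, and lower in KO by its 3 other probe sets. Eif4a2, an RNA helicase of initiation, read 806 and 2384, a ratio of 1.56, and Eef1a2, the elongation factor form of muscle and neurons, 98.5 and 215, a ratio of 1.12, each by 1 probe set. The list's median stayed above 0 under quantile (0.18), median (0.24) and loess scaling (0.16).

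Of 49 ribosome assembly factors, 29 were below 0, beside 7838 of 14597 measured genes, and the median was -0.20. Among the 49, 1 was at least 2-fold higher and 2 lower, beside 3.73% and 6.72% of all measured genes. The 44 under a mean signal of 1000 had a median of -0.23. The 5 at 1000 or more had a median of 0.28, with 4 above 0. Rrp12, a factor of ribosome subunit export, read 250 in WT and 32.4 in KO, under the floor, at least 5.32-fold lower. Rrs1, of large-subunit assembly, read 575 and 284 (ratio -1.02), but 0.09 by its other probe set. Lsg1, a GTPase of late large-subunit maturation, read 107 and 266 (ratio 1.32).

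Of 14 genes of RNA polymerase I and its factors, which transcribe ribosomal RNA, 10 were below 0, beside 7838 of 14597 measured genes. The list had a median of -0.30. Of these 14, 1 was 2-fold higher and 3 lower, beside 3.73% and 6.72% of all measured genes. Taf1c read 142 in WT and 40.3 in KO, under the floor, at least 3.02-fold lower, and Cd3eap, a polymerase subunit, 174 and 60.9 (ratio -1.51). Polr1e read 251 and 112 (ratio -1.16), but 0.25 by its other probe set. Taf1b read 38.5 in WT, under the floor, and 118 in KO, at least 2.52-fold higher. All of these were dim genes. The 13 genes of the list under a mean signal of 1000 had a median of -0.31, and the 1 above it, Polr1d, had a ratio of 0.40. The list's median was below 0 under the 3 other scalings.

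Of 17 regulators of ribosome supply, 11 were above 0, beside 46.3% of all measured genes, and the median was 0.16. In this list 3 were at least 2-fold higher and 1 lower, beside 3.73% and 6.72% of all measured genes. Myc, which raises ribosomal gene transcription, read 239 in WT and 533 in KO (ratio 1.16), and Mdm2, the p53 ligase, 650 and 1488 (ratio 1.19), with 1.79 by its other probe set. Mlst8, an mTOR partner, read 97.8 and 284 (ratio 1.54), but -0.05 by the other, and Tsc1, an mTOR inhibitor, 174 and 80.1 (ratio -1.12). Of 5 measured S6 kinase family genes, none was past 2-fold, and their median was 0.11.

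**Figure D4:**
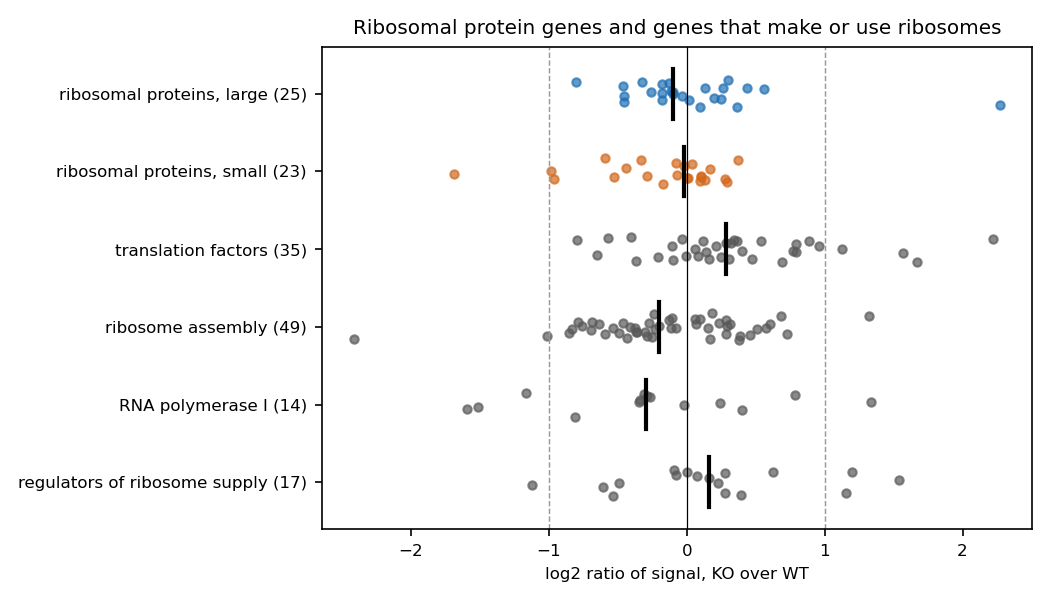
Log2 ratio of KO over WT signal (horizontal axis) for each measured gene of 6 lists (vertical axis, number of genes in brackets). Points are genes by their brightest own probe set, vertical bars list medians, dashed lines 2-fold; the bars lie at -0.10 and -0.02 for the large and small subunit, 0.29 for translation factors, -0.20 for ribosome assembly, -0.30 for RNA polymerase I and 0.16 for regulators.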

How the data were processed

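Total RNA of each culture was labelled as biotinylated cRNA and put on its own array, per the labels' protocols. Values are linear intensities as the authors deposited them, 1 for each probe set on each array. How probes were summarised, how arrays were scaled and the array build are not given in the sources used here. Instrument records of the 2 arrays, per the file headers, differed in 2 fields. The number of value columns left without a sample was 0.

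The members and gene lists were chosen with earlier results of these data known. Of the 45037 probe sets, the platform annotation listed 34945 for 1 symbol, 932 for several and 9160 for none, and 34741 matched an Entrez identifier of RefSeq, used for current symbols. As detection floor served percentile 40 of all values, both arrays pooled. Intensities were used as deposited, values under the floor were set to it, and a gene was given its brightest probe set by mean log2 value. A ratio with 1 side under the floor is a lower bound on the fold. Python 3.11.15, numpy 2.4.6, pandas 2.3.3 and statsmodels 0.14.6 were used, and the ratio code was tested on simulated data.

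Named were all members at least 2-fold different by any measured probe set, the 5 brightest of each subunit, the stalk proteins, the paralogs with their parents, Rpl5, Rpl11, Rps6, members whose probe sets oppose each other at 2-fold, and other listed genes at least 2-fold different. Rps25, Rpl14, Rps9, Rpl35, Rpsa, the members by symbol only and Fau were added after their values were seen, as were the descriptions by signal, by probe set ending and by start-site sequence. Alternatives were 3 scalings, other floors, a pseudocount, other choices of probe set, members and fold. No p-value was computed.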

Additional observations from a re-analysis of the deposited data

How the results depend on the processing

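No paired analysis was possible because each group has 1 array. No library could be left out for the same reason, and depth is set by signal over background, which is low for most own probe sets that passed 2-fold. The members' median ran from -0.15 (loess centring) to 0.02 (quantile scaling). The small-subunit median was -0.13 after loess centring and -0.36 over probe sets with no letter in their ending, which left 25 members. The difference of medians, large minus small, was 0.06 with the mean over probe sets and 0.31 over probe sets with no letter in their ending, against -0.08. The count at least 2-fold lower, 1, was 3 after median scaling (Rps6, Rps19bp1 and Rps25), where the count over all genes went from 981 to 1101. The members' count was 0 with the mean or the median over probe sets and 2 over probe sets with no letter in their ending. Own probe sets under the floor on both arrays, 1 of Rps6 among them, entered that mean and median with a ratio of 0. At 1.5-fold the count lower was 5. Past 1.5-fold in either direction were 6 of 48 members and 4677 of 14597 measured genes. The count at least 2-fold higher, 1, was 0 with shared probe sets included. At a mean signal of at least 1000 both counts were 0. These last 2 alternatives were chosen after seeing the data, as was the range of sign agreement within members, 52.2% to 61.9% over other scalings and floors. Of 87 recomputed medians, counts and shares, 75 stayed within their limits, 10 moved and 2 turned, the 2 being the difference of medians. Of 582 recomputed values of single members, 98 moved by more than 0.1. Why values moved was not tested, except that the probe sets and genes counted differ by construction.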
